A study of Mus musculus with 8 samples.

Results

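The ionotropic and metabotropic receptors for GABA and glutamate, the main inhibitory and excitatory transmitters of the brain, were examined in mouse hypothalamus across leptin-infused diabetic, diabetic and control animals. Members were the genes whose platform symbol belongs to the GABA-A, GABA-B, AMPA, NMDA, kainate, delta or metabotropic glutamate receptor families and that a probe detected, at a detection p-value under 0.05, on 2 arrays or more. Where a gene had several such probes, the one with the highest mean stood for it. Of 35 such genes with a probe, 20 were kept, among 10703 genes with a kept probe in all. One of the 20, Grid2ip, matched the symbol pattern but encodes delphilin, a protein that binds the delta glutamate receptor, so 19 are receptor genes proper.

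The 8 samples were hypothalamic blocks of male mice of 12 to 15 weeks, with the strain labelled only as mixed, and each was hybridised to 1 bead array. There were 3 samples with streptozotocin (STZ)-induced type 1 diabetes and a continuous central leptin infusion (replicates 6, 7 and 8), 3 with STZ-induced diabetes alone (replicates 1, 2 and 3) and 2 saline controls (replicates 4 and 5). STZ is a toxin of pancreatic beta cells that removes insulin, so the leptin-infused mice carry the same toxin treatment as the diabetic ones. The labels do not say whether each sample was 1 animal, so the spread behind every p-value may be partly technical.

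GABA-A receptors are chloride channels put together from alpha, beta and gamma or delta subunits, whereas GABA-B receptors act through G proteins. AMPA, NMDA and kainate receptors are cation channels, and the metabotropic glutamate receptors are G protein-coupled. In the hypothalamus, fast GABA and glutamate signals reach the neurons that set feeding, hormone release and blood glucose, among them neurons that respond to leptin.

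No receptor gene passed the test in any of the 3 comparisons, which does not show that their levels were the same. In STZ against saline 0 of 20 passed at an adjusted p of 0.05 in limma, where 4.29 percent of the 15494 kept probes did (616 higher and 48 lower). In STZ with leptin against STZ 0 of 20 passed, against 5.62 percent of all probes (335 higher and 535 lower), and in STZ with leptin against saline 0 of 20, against 2.03 percent (251 higher and 63 lower). At an unadjusted p under 0.05 the counts were 2 of 20 (Gabrb2 and Grik5) in STZ against saline, where 14.4 percent of all probes lay, 1 of 20 (Gabrd) in leptin against STZ, where 19.4 percent lay, and 1 of 20 (Gria1) in leptin against saline, where 11.9 percent lay. These comparisons share samples in pairs, and an opposite sign between them is therefore not a separate observation.

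In the gene order of mouse assembly GRCm38.p6, most GABA-A subunit genes on the array stand beside another subunit gene. Gabrb1, detected on all 8 arrays, lies next to Gabra4, detected on 1, and Gabrg1, detected on 8, lies next to Gabra2, detected on 0. Gabra3 (8 arrays) neighbours Gabrq (0 arrays), and Gabrb2 (8 arrays) neighbours Gabra6 (0 arrays). Other neighbours were alike in going largely undetected, Gabrr1 and Gabrr2 on 0 arrays each and Gabrg3 and Gabra5 on 1 and 0. A probe at background does not show that its transcript is absent.

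The starts of Gabrb1 and Gabra4 lie 387 bases apart on opposite strands, so that the first bases of the 2 genes overlap. Their RefSeq promoter windows (250 bases before to 50 after the start, GRCm38.p6) are shown because genes with starts this close were detected unequally. Capitals mark the 50 bases from the start on. The Gabrb1 window is chr5:71657671-71657970 on the plus strand, and that of Gabra4 is chr5:71658259-71658558 on the minus strand.
Gabrb1: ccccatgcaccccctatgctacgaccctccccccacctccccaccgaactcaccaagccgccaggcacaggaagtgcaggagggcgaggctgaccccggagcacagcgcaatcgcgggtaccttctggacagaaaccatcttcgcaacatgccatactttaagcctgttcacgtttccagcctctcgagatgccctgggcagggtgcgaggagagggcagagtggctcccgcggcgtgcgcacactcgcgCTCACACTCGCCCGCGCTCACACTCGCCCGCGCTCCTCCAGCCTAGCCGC
Gabra4: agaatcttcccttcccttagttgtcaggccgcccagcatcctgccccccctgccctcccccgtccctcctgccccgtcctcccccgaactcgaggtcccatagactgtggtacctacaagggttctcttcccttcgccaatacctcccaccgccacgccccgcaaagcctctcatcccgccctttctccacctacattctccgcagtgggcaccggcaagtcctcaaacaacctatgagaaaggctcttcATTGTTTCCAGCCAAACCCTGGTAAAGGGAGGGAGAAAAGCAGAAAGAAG

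Leptin acts through STAT3, whose palindromic site has the letters TTCNNNGAA, the same on both strands. RefSeq promoter windows were available for 15 of the 20 members, 23 windows in all, and 3 of the 23 (13.0 percent) held these letters, against 8.30 percent of all 32851 windows in the table. They belonged to Gabrg1, to a second start of Gabrb1 and to Grid2ip. Capitals mark the match in the first 2 of these, which are shown because both are GABA-A subunits. A match is a description of letters and not evidence of binding. The Gabrg1 window is chr5:70842568-70842867 on the minus strand, and that of Gabrb1 is chr5:71699682-71699981 on the plus strand.
Gabrg1: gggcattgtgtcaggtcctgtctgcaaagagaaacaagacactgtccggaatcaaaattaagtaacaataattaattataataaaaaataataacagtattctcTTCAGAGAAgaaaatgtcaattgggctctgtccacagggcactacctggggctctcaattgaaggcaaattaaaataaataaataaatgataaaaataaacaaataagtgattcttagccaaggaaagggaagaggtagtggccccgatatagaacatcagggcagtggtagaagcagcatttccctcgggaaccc
Gabrb1, second start: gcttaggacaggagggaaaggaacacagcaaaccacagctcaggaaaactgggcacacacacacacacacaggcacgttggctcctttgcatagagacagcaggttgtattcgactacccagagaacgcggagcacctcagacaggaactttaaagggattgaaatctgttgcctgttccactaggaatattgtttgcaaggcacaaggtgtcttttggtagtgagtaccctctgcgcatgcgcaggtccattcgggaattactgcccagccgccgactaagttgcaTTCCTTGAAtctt

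Of 15 GABA-A genes with a probe 5 were kept, all detected on the 8 arrays: the alpha subunit Gabra3, the beta subunits Gabrb1 and Gabrb2, the gamma subunit Gabrg1 and the delta subunit Gabrd, which occurs in receptors outside the synapse. The other 10 (Gabra2, Gabra4, Gabra5, Gabra6, Gabre, Gabrg3, Gabrq, Gabrr1, Gabrr2 and Gabrr3) were detected on at most 1 array and were not tested. Median differences of the 5 kept genes were -0.01 log2 units in leptin against STZ, -0.19 in STZ against saline and -0.24 in leptin against saline.

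Gabrb2 showed the largest difference among all 20 members in STZ against saline. Its normalized log2 intensity was 6.61, 6.18 and 6.05 with leptin, 6.15, 6.12 and 6.03 in STZ, and 6.99 and 6.38 in saline. The STZ arrays lay below both saline arrays, and the saline arrays differed by 0.61, more than STZ differed from saline (-0.58 ± 0.22 SE, 95% interval -1.09 to -0.08, adjusted p = 0.26 in limma).

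Gabrd was the only member with a higher mean in STZ than in saline. It stood at 10.01, 9.81 and 9.89 with leptin, 10.26, 10.03 and 10.40 in STZ, and 10.12 and 10.09 in saline. Every leptin array lay below every STZ array and below both saline arrays. The difference of leptin from STZ was -0.33 ± 0.14 (95% interval -0.64 to -0.02, adjusted p = 0.23 in limma), the lowest adjusted p of any member in that comparison. The second kept Gabrd probe ran the same way, at -0.25 in leptin against STZ and 0.10 in STZ against saline.

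Gabra3 and Gabrb1 were spread by single arrays. Gabra3 lay at 7.71, 7.62 and 8.18 with leptin, 8.42, 7.80 and 7.85 in STZ, and 8.13 and 8.07 in saline. Within STZ it ranged over 0.63, against a difference of -0.08 from saline, and within the leptin group over 0.56, against -0.19 from STZ. Gabrb1 averaged 9.86 ± 0.26 with leptin, 9.87 ± 0.36 in STZ and 10.10 ± 0.09 in saline (SD, n = 3, 3 and 2), and Gabrg1 averaged 8.06 ± 0.27, 7.94 ± 0.10 and 8.13 ± 0.08 in the same order of groups. In Gabra3 and Gabrb1 STZ replicate 1 was the highest of all 8 arrays.

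**Figure D1:**
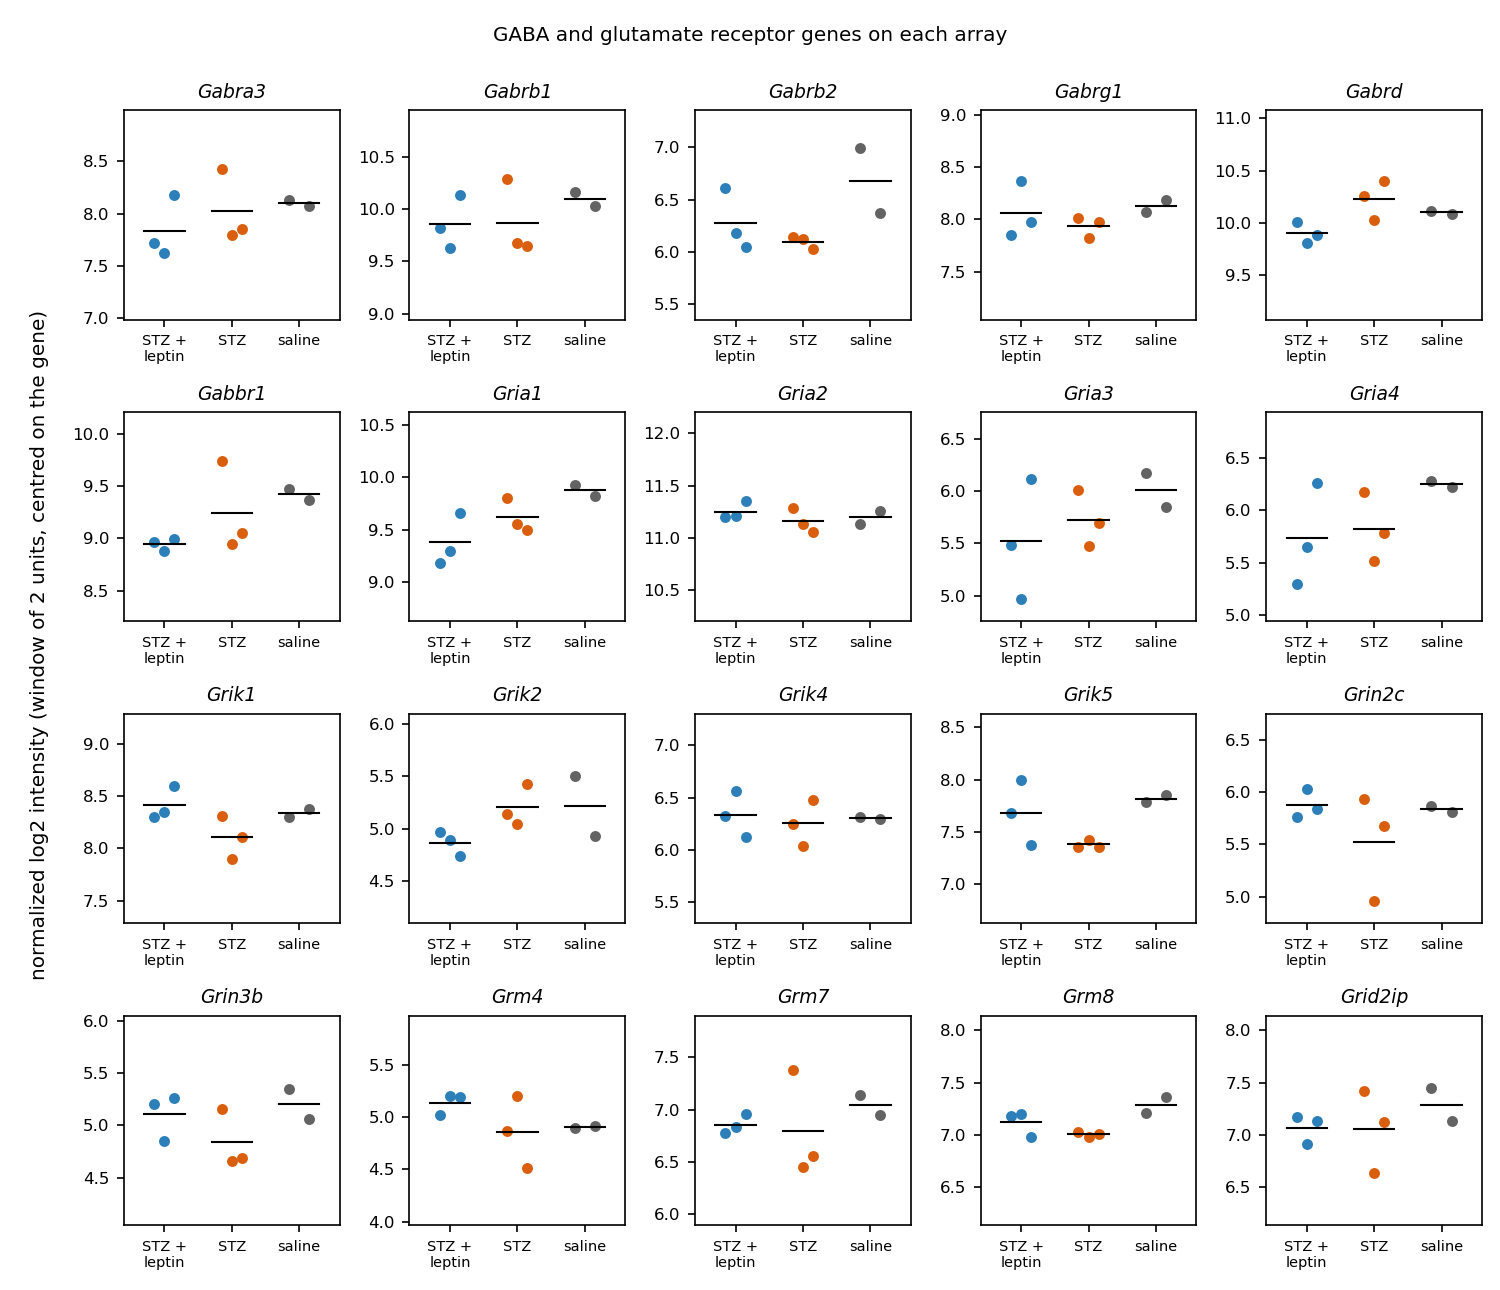
Normalized log2 intensity (vertical axis, a window of 2 log2 units in every panel) of the 20 members on each array, with leptin-infused STZ, STZ and saline samples from left to right; points are arrays and black lines are group means. In all panels but those of Gabrd and Grik2 the leptin and STZ arrays overlap. STZ replicate 1, the leftmost of its group, is the highest STZ array in 15 of 20 members.

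GABA-B receptors are pairs of a GABA-binding and a signalling subunit, and only the first, Gabbr1, was measured here. Gabbr1 was at 8.97, 8.88 and 8.999 with leptin, 9.74, 8.95 and 9.05 in STZ, and 9.48 and 9.37 in saline. The leptin arrays lay below both saline arrays by a mean of -0.48 ± 0.22 (95% interval -0.98 to 0.03, adjusted p = 0.47 in limma). The STZ arrays split, with replicate 1 above saline and the other two beside the leptin arrays. Without STZ replicate 1 the adjusted p in limma for STZ against saline was 0.11, at -0.42, and with it 0.78, at -0.18. Replicate 1 was the highest STZ array, so leaving it out could only lower the STZ mean.

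All 4 AMPA receptor subunits were kept. Their median differences of -0.14 in leptin against STZ, -0.27 in STZ against saline and -0.49 in leptin against saline all lay below 0, and none of the 4 passed. Gria2, the subunit whose edited RNA makes AMPA receptors impermeable to calcium, was at 11.20, 11.21 and 11.35 with leptin, 11.29, 11.14 and 11.06 in STZ, and 11.14 and 11.26 in saline. The groups overlapped, and its 95% intervals spanned -0.19 to 0.37 in leptin against STZ and -0.35 to 0.28 in STZ against saline. Its second kept probe differed by 0.03 in leptin against STZ and by -0.20 in STZ against saline.

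Gria1, a subunit inserted at synapses on activity, had the lowest p of the 20 members in leptin against saline. It stood at 9.18, 9.29 and 9.66 with leptin, 9.81, 9.55 and 9.49 in STZ, and 9.93 and 9.82 in saline. All leptin and all STZ arrays lay below both saline arrays, by -0.50 ± 0.18 with leptin (95% interval -0.91 to -0.09, adjusted p = 0.30 in limma) and by -0.26 ± 0.18 in STZ (adjusted p = 0.59). All 3 Gria1 probes gave the same signs, from -0.54 to -0.50 in leptin against saline and from -0.39 to -0.26 in STZ against saline. The probes read the same 8 RNA samples, so they are not separate support for a change.

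Gria4 was at 5.30, 5.65 and 6.26 with leptin, 6.17, 5.51 and 5.78 in STZ, and 6.28 and 6.22 in saline. Gria3 was at 5.49, 4.97 and 6.12 with leptin, 6.01, 5.47 and 5.69 in STZ, and 6.17 and 5.84 in saline. The saline arrays lay above most others, and these 2 had the widest intervals of the 20 members, from -1.16 to 0.13 for Gria4 and from -1.18 to 0.22 for Gria3 in leptin against saline. The kept probes of Gria3 differed in sign in leptin against STZ, at -0.20, 0.29 and -0.13.

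**Figure D2:**
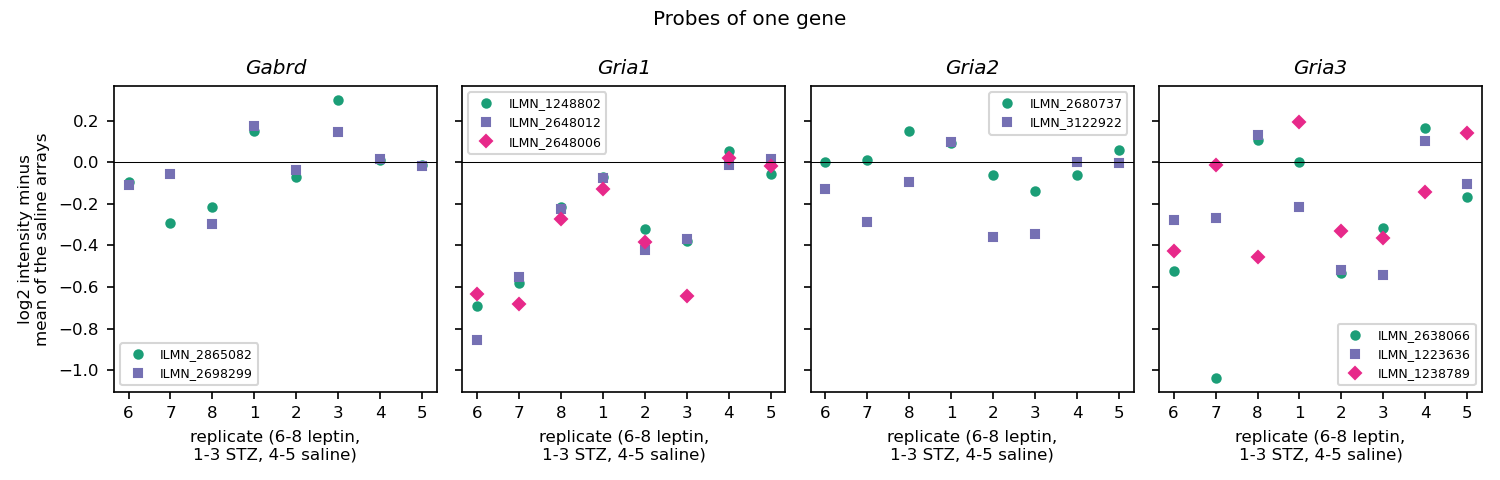
Log2 intensity of each kept probe minus its mean over the saline arrays, for the 4 members with several kept probes; arrays run from leptin-infused STZ (6 to 8) over STZ (1 to 3) to saline (4 and 5), and each colour is a probe. All 3 Gria1 probes lie below 0 on every leptin and STZ array, and a Gria3 probe stands apart from the other two on leptin replicate 7.

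Kainate receptors were represented by Grik1, Grik2, Grik4 and Grik5. Grik5, a subunit that forms channels only together with others, was at 7.68, 7.999 and 7.38 with leptin, 7.36, 7.42 and 7.36 in STZ, and 7.79 and 7.85 in saline. The STZ arrays lay tightly together below saline, by -0.44 ± 0.18 (95% interval -0.85 to -0.02, adjusted p = 0.32 in limma), and the leptin arrays overlapped both groups. Grik1 was at 8.30, 8.35 and 8.59 with leptin, 8.31, 7.90 and 8.11 in STZ, and 8.30 and 8.38 in saline, and leptin differed from STZ by 0.31 ± 0.15 (adjusted p = 0.31).

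Grik2 was near background. It was detected on 0 of 3 leptin arrays, 2 of 3 STZ arrays and 1 of 2 saline arrays, at 4.97, 4.89 and 4.74 with leptin, 5.14, 5.04 and 5.43 in STZ, and 5.50 and 4.93 in saline. The leptin arrays were not well above background, and no fold could be bounded above 1.01. Grik4 averaged 6.34 ± 0.22, 6.26 ± 0.22 and 6.31 ± 0.01 with leptin, in STZ and in saline (SD, n = 3, 3 and 2).

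NMDA receptors were read poorly. Of 5 NMDA genes with a probe 2 were kept, Grin2c and Grin3b, neither on all 8 arrays, while Grin2a, Grin2b and Grin2d were detected on at most 1. Grin2c was at 5.76, 6.03 and 5.84 with leptin, 5.93, 4.95 and 5.67 in STZ, and 5.87 and 5.81 in saline, with STZ replicate 2 alone far below the rest. Grin3b, a subunit that lowers the calcium flow of the channel, was at 5.20, 4.85 and 5.27 with leptin, 5.16, 4.66 and 4.69 in STZ, and 5.35 and 5.06 in saline. They differed by 0.36 ± 0.23 and 0.27 ± 0.19 between leptin and STZ (adjusted p = 0.46 and 0.49 in limma).

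Of 5 metabotropic genes with a probe 3 were kept, Grm4, Grm7 and Grm8, all of the class that sits on nerve endings and lowers transmitter release. Grm8 was at 7.18, 7.20 and 6.98 with leptin, 7.03, 6.98 and 7.01 in STZ, and 7.21 and 7.36 in saline. All leptin and STZ arrays lay below both saline arrays, and STZ differed by -0.28 ± 0.14 (95% interval -0.59 to 0.04, adjusted p = 0.41 in limma). Grm4 was detected on 1 of 3 leptin, 1 of 3 STZ and 0 of 2 saline arrays, at 5.02, 5.20 and 5.19 with leptin, 4.86, 5.20 and 4.51 in STZ, and 4.90 and 4.92 in saline, and was not well above background in saline.

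Grm7 averaged 6.85 ± 0.09 with leptin, 6.80 ± 0.51 in STZ and 7.04 ± 0.14 in saline (SD, n = 3, 3 and 2). In STZ it stood at 7.38 in replicate 1, against 6.45 and 6.56 in the others. Without STZ replicate 1 its difference from saline was -0.54 (adjusted p = 0.071 in limma), against -0.24 (adjusted p = 0.74) with it. Leaving out the highest STZ array could only widen this difference. Grid2ip averaged 7.07 ± 0.14, 7.06 ± 0.39 and 7.29 ± 0.23 with leptin, in STZ and in saline.

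As a group the members leaned lower in STZ without any passing. In STZ against saline 19 of 20 had a lower mean (95 percent), against 65.7 percent of all kept probes, with a median of -0.23 against -0.09 for all probes. With cyclic loess in place of quantile normalization 14 of 20 were lower, with a median of -0.12 against -0.01. In leptin against STZ 8 of 20 were lower (45.8 percent of all probes), with a median of 0.07 against 0.03, and in leptin against saline 15 of 20 (56.4 percent of all probes), with a median of -0.19 against -0.04. Fewer cells of a type and less RNA per cell cannot be told apart in tissue blocks.

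Groups without overlap were counted in the same way. In STZ 6 of 20 members (30.0 percent) lay wholly below saline, namely Gabrb2, Gabrg1, Gria1, Gria4, Grik5 and Grm8, against 19.5 percent of all probes, and 0 lay wholly above, against 12.0 percent. With leptin 2 of 20 (Gabrd and Grik2) lay wholly below STZ, against 11.1 percent, and 0 wholly above, against 12.0 percent. Against saline 4 leptin members (Gabbr1, Gabrd, Gria1 and Grm8) lay wholly below, against 20.2 percent, and Grm4 wholly above, against 13.9 percent. The last 4 counts lie near or under the share of all probes. Grik2 was detected on 0 of 3 leptin arrays and met the filter only through STZ and saline arrays. Grm4 was detected on 0 of 2 saline arrays. The place of these genes in the counts is therefore no support for a change.

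The depth of the design sets what these comparisons could have shown. To pass, a member would have needed a log2 difference of 0.50 to 1.13 in leptin against STZ, 0.59 to 1.32 in STZ against saline and 0.66 to 1.48 in leptin against saline, depending on its own error. In leptin against STZ the 95% intervals of all 20 members lay within 1 log2 unit of 0, and in each comparison with saline those of 18 of 20 did. These counts include members near background on some arrays, such as Grik2, Grm4 and Grin3b, whose log2 differences understate any change in the transcript. The range within at least 1 of the groups compared was wider than the difference in 20, 17 and 16 of 20 members in leptin against STZ, STZ against saline and leptin against saline.

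**Figure D3:**
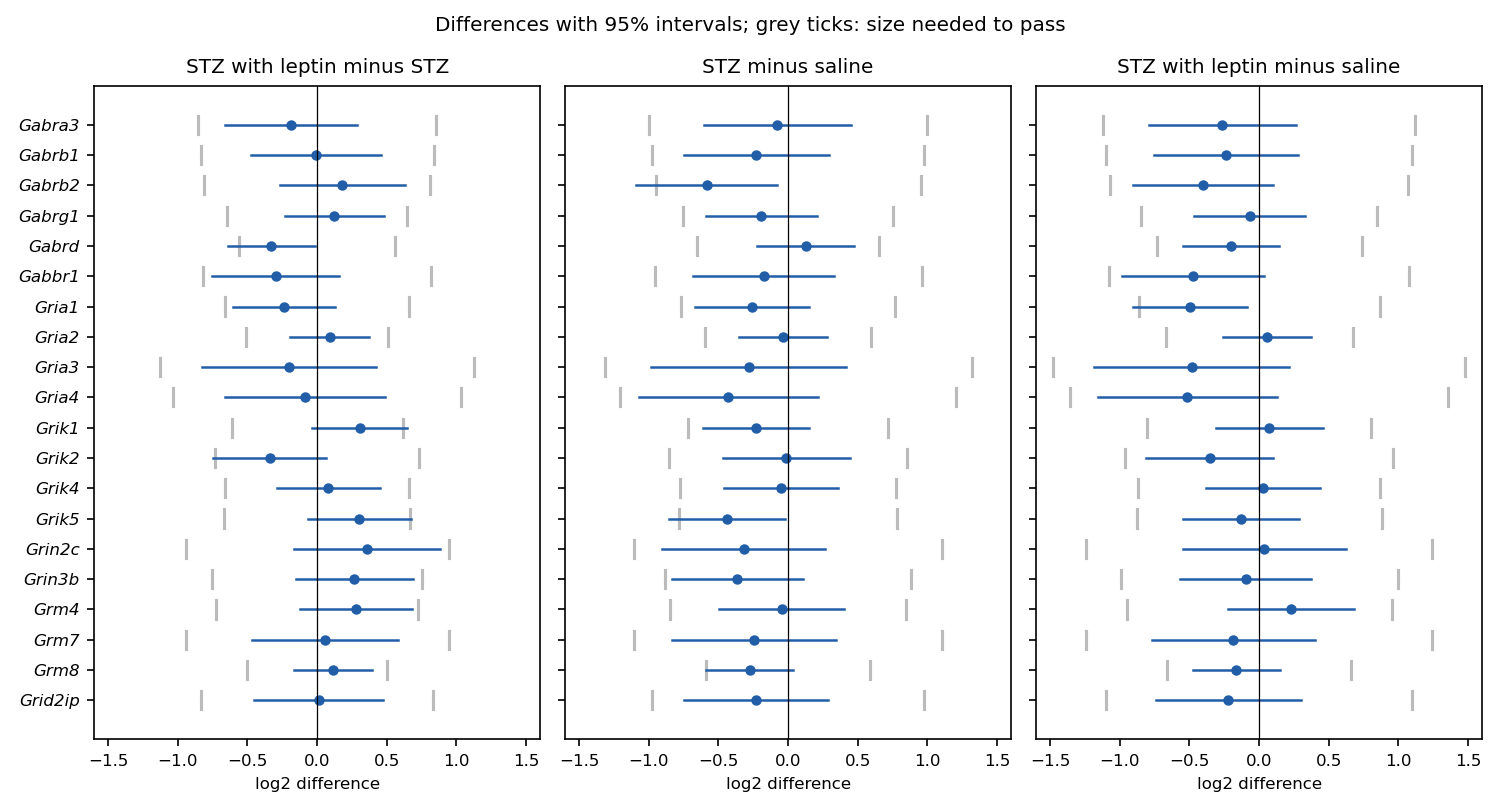
Log2 differences (points) with 95% intervals (lines) of the 20 members in the 3 comparisons, with leptin against STZ on the left; grey ticks mark the difference each member would have needed to pass at an adjusted p of 0.05. No point lies beyond its ticks.

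Single arrays moved many members together. STZ replicate 1 was the highest STZ array in 15 of 20 members and STZ replicate 2 the lowest in 14, and leptin replicate 8 was the highest leptin array in 10. These counts were not made for all probes. The median deviation of the members from their mean over the 8 arrays was -0.04, -0.16 and 0.07 with leptin, 0.16, -0.22 and -0.12 in STZ, and 0.21 and 0.09 in saline. Over all kept probes it was -0.008, -0.006 and -0.003 with leptin, 0.03, -0.07 and -0.04 in STZ, and 0.05 and 0.04 in saline. The order of the arrays within STZ and within saline was thus the same over all probes. Without STZ replicate 1 the median difference of STZ from saline was -0.38, and without STZ replicate 2 it was -0.13. Median raw intensity per array ran from 117.2 to 127.5, and no slide or scan date was given in the sources used here.

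Markers of other cells are given beside these values. Of 12 neuron markers 10 were kept and all 10 had a lower mean in STZ than in saline, as had 65.7 percent of all probes. The neuron markers had a median of -0.19, and 0 passed in limma, with lowest adjusted p-values of 0.16 for Nefm and 0.19 for Rbfox3. Their summed linear signal, in kilo-units of intensity, was 57.8 to 61.2 with leptin, 51.7 to 65.9 in STZ and 62.5 to 66.4 in saline. Of 9 microglia markers 8 were kept, with a summed signal of 8.44 to 9.91 with leptin, 11.8 to 15.7 in STZ and 3.55 to 3.75 in saline. In STZ against saline 7 of the 8 had a higher and 1 a lower mean. There 5 passed, all higher, where 4.29 percent of all probes passed. In leptin against STZ all 8 had a lower mean and 3 passed, where 5.62 percent of all probes did. P2ry12, also a microglia marker, fell by 2.32 in leptin against STZ (SE 0.20, adjusted p = 0.00028 in limma) and fell by 2.45 in leptin against saline (SE 0.22, adjusted p = 0.00057), where C1qb rose by 2.49 (SE 0.19, adjusted p = 0.00023). All 7 astrocyte markers were kept, with sums of 28.5 to 34.4 with leptin, 31.9 to 37.1 in STZ and 29.8 to 31.4 in saline, and Gfap rose 3.11-fold in STZ against saline (1.64 ± 0.32, adjusted p = 0.021). Of 7 pituitary markers 5 were kept, and their summed signal was 0.214 to 0.323 with leptin, 0.216 to 76.9 in STZ, where STZ replicate 2 stood apart, and 0.512 to 1.07 in saline. Of 7 choroid plexus markers all were kept, with sums of 1.98 to 5.26, 1.81 to 32.2 and 15.3 to 31.7. STZ replicate 1 stood apart in these, with a median deviation from the mean over the 8 arrays of -1.21, against 1.07 and 1.00 in STZ replicates 2 and 3. The leptin arrays were at -1.28, -1.12 and -0.68 and the saline arrays at 0.20 and 1.71. Csf1r, Snap25, Nefl, Fshb and Pou1f1 were not kept. Their part in the members' values was not tested.

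The tissue label was also checked. Of 22 hypothalamic markers 15 were kept, including the peptides Hcrt, Pmch, Oxt and Avp. The transcription factors Sim1, Otp, Rax, Nr5a1, Lhx6, Hmx2 and Hmx3 were not. The hypothalamic sums were 36.7 to 50.3 with leptin, 25.2 to 36.6 in STZ and 28.4 to 35.8 in saline. In leptin against STZ 12 of the 15 had a higher and 3 a lower mean. There 4 passed in limma, all higher (Pmch, Cartpt, Gal and Hcrt), where 5.62 percent of all probes passed. In the 2 comparisons with saline 0 of the 15 passed. Markers of neighbouring regions were read as well, with 5 of 6 thalamic, 4 of 7 striatal and 4 of 8 cortical and hippocampal genes kept. The thalamic sums were 12.7 to 14 with leptin, 13.1 to 17.0 in STZ and 14.2 to 16.2 in saline. The striatal sums were 1.88 to 3.42 with leptin, 2.99 to 3.6 in STZ and 1.65 to 2.93 in saline. Of the 4 kept striatal genes 3 had a higher and 1 a lower mean in STZ than in saline (median 0.41, 0 passing in limma). The cortical and hippocampal sums were 1.01 to 1.22 with leptin, 0.891 to 0.915 in STZ and 1.11 to 1.24 in saline. All 4 kept genes of these had a lower mean in STZ than in saline (median -0.40, 0 passing in limma and 0 at an unadjusted p under 0.05). The share over all probes was 65.7 percent. The part of these regions in the members' lower means in STZ was not tested.

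**Figure D4:**
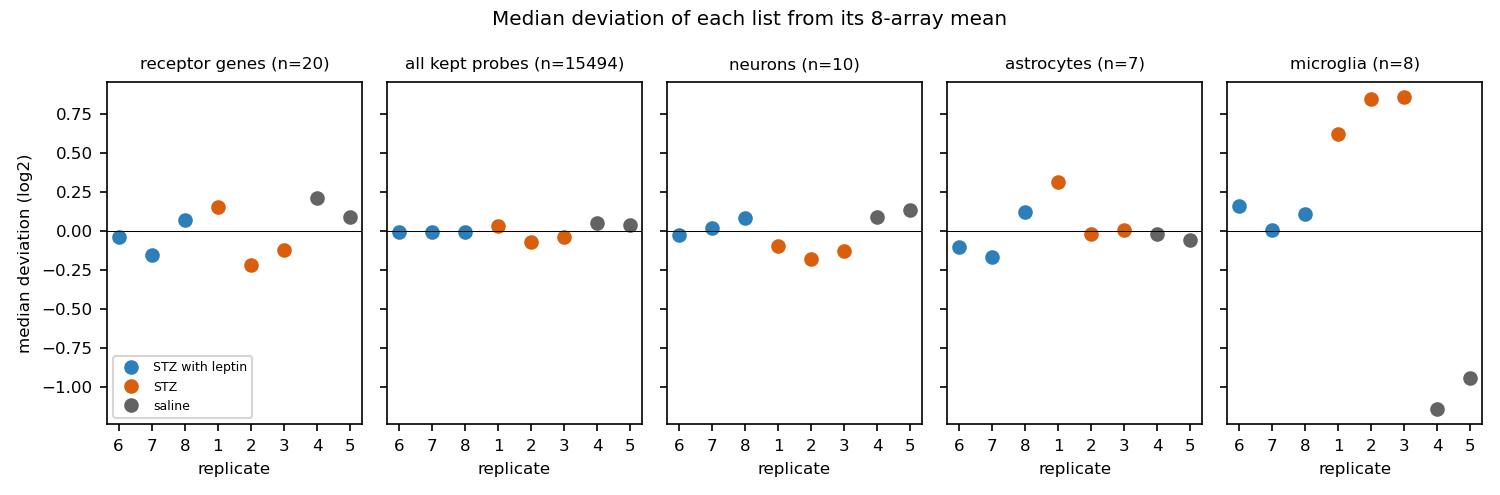
Median deviation (log2) of the members, of all kept probes and of 3 marker lists from their own mean over the 8 arrays, by replicate, with leptin-infused STZ, STZ and saline samples from left to right. The receptor genes of STZ replicate 1 lie at 0.16 while those of the other STZ arrays lie at -0.22 and -0.12, and the microglia markers separate STZ from saline.

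Genes that make, pack and clear the 2 transmitters gave 1 call. Of 7 kept GABA genes 0 passed in any comparison, all 7 having a lower mean in STZ than in saline (median -0.29) and with leptin than in saline (median -0.33). The shares of all probes with a lower mean were 65.7 and 56.4 percent in these 2 comparisons. Gad1, a GABA-synthesising enzyme, was at 12.35, 12.53 and 12.62 with leptin, 12.49, 12.40 and 12.39 in STZ, and 12.55 and 12.89 in saline (STZ minus saline -0.29 ± 0.16, adjusted p = 0.46 in limma). Slc6a11, a GABA transporter of astrocytes, differed by 0.33 ± 0.15 between leptin and STZ (adjusted p = 0.29) and by -0.36 ± 0.17 between STZ and saline (adjusted p = 0.39). Slc32a1, which loads GABA into vesicles, differed by -0.34 ± 0.22 between leptin and STZ (adjusted p = 0.45) and by -0.46 ± 0.24 between leptin and saline (adjusted p = 0.54). Aldh5a1, which ends GABA breakdown, differed by -0.33 ± 0.17 between leptin and saline (adjusted p = 0.51).

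Of 15 kept genes of glutamate metabolism and transport 1 passed in leptin against STZ, where 5.62 percent of all probes did. Glul, the glutamine synthetase of astrocytes that turns glutamate into glutamine, rose 1.93-fold in leptin against STZ (0.95 ± 0.20, adjusted p = 0.026 in limma). It was at 7.64, 7.96 and 7.14 with leptin, 6.70, 6.68 and 6.52 in STZ, and 7.08 and 7.10 in saline. All leptin arrays lay above STZ, and above saline as well. Leaving out 1 sample at a time the difference lay between 0.76 and 1.17. The adjusted p was 0.071 and 0.10 without STZ replicates 2 and 3, 0.087 and 0.074 without leptin replicates 6 and 7, and 0.053 without saline replicate 4 or 5 and with only the groups compared. Of the astrocyte markers, S100b rose by 0.89 ± 0.21 (adjusted p = 0.043 in limma) and Gfap fell by 1.32 (SE 0.29, adjusted p = 0.031) in the same comparison, and their part in the Glul difference was not tested. Slc38a2, a glutamine transporter, was next, at -0.37 ± 0.17 in leptin against STZ (adjusted p = 0.27). In STZ against saline the lowest p-values were those of Glul (-0.46 ± 0.22, adjusted p = 0.40) and Slc1a3, a glutamate transporter of astrocytes (0.26 ± 0.13, adjusted p = 0.41). In leptin against saline they were those of Slc17a8, a vesicular glutamate transporter (0.67 ± 0.30, adjusted p = 0.42), and Glul (0.49 ± 0.22, adjusted p = 0.43).

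Of 32 kept genes of the excitatory synapse, 1 passed in STZ against saline, where 4.29 percent of all probes did, and 1 in leptin against STZ, where 5.62 percent did. Nptx1, a pentraxin that gathers AMPA receptors at synapses, fell in STZ against saline by 0.79 on the log2 scale (SE 0.17, adjusted p = 0.033 in limma), at 5.47, 5.29 and 5.57 with leptin, 5.28, 5.33 and 5.49 in STZ, and 5.96 and 6.35 in saline. Its leptin arrays stayed below saline by a mean of -0.71 ± 0.17 (adjusted p = 0.083). Nptx1 was not among the probes detected under 0.01 on all arrays, so it was not tested under that filter. The difference between STZ and saline lay between -0.98 and -0.59 when any 1 of the 5 STZ and saline samples was left out, but did not pass (adjusted p = 0.052 to 0.34), nor did it without leptin replicate 6 (0.062). The adjusted p was 0.12 in the authors' processed values, 0.12 with no background correction, 0.070 with another background correction, 0.083 with cyclic loess, 0.069 with a robust variance trend, and 0.078 when leptin arrays were left out of the model.

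Cnih2, a cornichon protein that accompanies AMPA receptors to the surface, rose 1.92-fold in leptin against STZ (0.94 ± 0.18, adjusted p = 0.018 in limma). It was at 6.85, 7.13 and 7.13 with leptin, 6.24, 5.71 and 6.32 in STZ, and 6.54 and 6.43 in saline, with every leptin array above every other array. Leaving out 1 sample at a time the difference lay between 0.76 and 1.06, and without leptin replicates 7 and 8 the adjusted p was 0.069 and 0.053. Among the 10 kept neuron markers 6 had a higher and 4 a lower mean in leptin than in STZ (median 0.09). Map2 was the 1 that passed, where 5.62 percent of all probes did, and rose by 0.54 (SE 0.13, adjusted p = 0.048 in limma). The part of neuron markers in the Cnih2 difference was not tested. Of the 32 genes, 26 had a higher mean in leptin than in STZ (median 0.17, against 0.03 for all probes), and 29 had a lower mean in STZ than in saline (median -0.24, against -0.09). Cacng7, an AMPA receptor auxiliary, was the next in STZ against saline, at -0.52 ± 0.16 (adjusted p = 0.16). Dlgap1, a scaffold protein, was the next in leptin against STZ, at 0.40 ± 0.15 (adjusted p = 0.19). It averaged 4.98 in STZ, where Grik2, a member near background, averaged 5.20. Grip1, another scaffold protein, differed between leptin and saline by -0.50 ± 0.14 (adjusted p = 0.17).

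Partners of inhibitory receptors and chloride transporters gave 0 calls. Of 19 kept genes of the inhibitory synapse the lowest p-values belonged to Trak1 in STZ against saline (-0.38 ± 0.15, adjusted p = 0.30 in limma) and to Gabarapl2 in leptin against STZ (0.26 ± 0.14, adjusted p = 0.35). The next were Gabarapl2 in STZ against saline (-0.30 ± 0.16, adjusted p = 0.44) and Ubqln1 in leptin against STZ (0.15 ± 0.11, adjusted p = 0.53), and in leptin against saline Kctd12 (0.47 ± 0.26, adjusted p = 0.56) and Plcl2 (-0.28 ± 0.16, adjusted p = 0.57). Of 7 kept chloride transporter and glycine receptor genes all had a higher mean with leptin than in STZ (median 0.18) and a lower mean in STZ than in saline (median -0.19). Of all probes 45.8 percent were lower with leptin than in STZ, and 65.7 percent were lower in STZ than in saline. Both comparisons use the same STZ arrays. Slc12a5, the chloride exporter of neurons that keeps GABA inhibitory, was at 7.10, 6.71 and 6.42 with leptin, 6.04, 6.31 and 5.91 in STZ, and 6.78 and 6.06 in saline, and leptin differed from STZ by 0.65 ± 0.23 (adjusted p = 0.16 in limma). It differed by -0.33 ± 0.26 between STZ and saline (adjusted p = 0.64) and by 0.32 ± 0.26 between leptin and saline (adjusted p = 0.72), where Slc12a2, a chloride importer, was next at -0.13 ± 0.16 (adjusted p = 0.82). Glra1, a glycine receptor subunit, differed by 0.45 ± 0.15 between leptin and STZ (adjusted p = 0.14) and by -0.53 ± 0.17 between STZ and saline (adjusted p = 0.17). It averaged 4.95 in STZ, where Grik2, a member near background, averaged 5.20.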

How the data were processed

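Hypothalamic RNA of 8 samples, 300 ng each, was amplified to biotinylated cRNA and measured on 1-colour Illumina bead arrays, per the labels' protocols. The deposited raw table holds a linear bead-summary intensity per probe, without background subtraction, each followed, per the file headers, by a detection p-value. The authors' processed table holds log2 values (median 6.90 in every column, probes not centred), made with software that no source here names. It served as an alternative.

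Raw intensities were corrected for background and brought to common quantiles by the neqc function (offset 16; limma 3.58.1, R 4.3.3). Of 25697 probes 15494 were kept with a detection p under 0.05 on at least 2 arrays. The platform table gave 1 symbol to 23978 probes and none to 1719. Of 46 receptor probes 26 were kept. limma fitted the means of the 3 groups over all 8 arrays together (5 residual and 3.93 prior degrees of freedom), with Benjamini-Hochberg adjustment over all kept probes and a threshold of 0.05. Errors of differences are moderated standard errors. The number of arrays limits the precision. The fit was tested on simulated data. The size needed to pass is the member's error times the t value of the largest p that passed.

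Each member is named. Values per array are given for the 14 with the lowest p in any comparison and for single others. In each list of transmitter, synapse, chloride transporter and glycine receptor genes they are given for each gene that passed, with differences for the 2 of lowest p. Of the cell and region markers that passed, only some are named. The members and lists were chosen with earlier results of these data known. Samples were grouped by their titles. STZ replicates 1 and 3 both have the number 1 in their descriptions. Alternatives changed the input, background correction, normalization, filter, variance model, samples and probe summary.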

Additional observations from a re-analysis of the deposited data

How the results depend on the processing

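Across 20 alternatives per comparison 0 members passed in limma in any of the 3, and the lowest adjusted p was 0.065 (Gria1 in leptin against saline, array weights), 0.071 (Grm7 in STZ against saline, without STZ replicate 1) and 0.071 (Gabrd in leptin against STZ, array weights). Leaving out 1 sample at a time, the median difference of the members lay between -0.07 and 0.16 in leptin against STZ (-0.07 without STZ replicate 2), between -0.38 and -0.13 in STZ against saline and between -0.26 and -0.11 in leptin against saline. Under the other alternatives it lay between 0.02 and 0.11, between -0.28 and -0.12 and between -0.25 and -0.11. The count of all probes that passed ranged from 474 to 1859, from 281 to 1659 and from 108 to 714. Signs of members that did not pass changed in 22, 20 and 13 of 394 values. Among probes detected under 0.01 on all arrays 14 members were tested and 0 passed. With the number in the sample descriptions as a replicate block 0 members passed (median 0.11, -0.24 and -0.25, in the same order), with 474, 336 and 211 probes passing in all, against 870, 664 and 314 without it, and Nptx1 (adjusted p = 0.20) and Cnih2 (0.072) no longer passed. Arrays of different groups with the same number correlated at -0.22 to 0.09 in their deviations from the group means. Those with different numbers correlated at -0.315 to 0.315. With 2 or 3 arrays a group the deviations within a group are tied, so these values cannot show what the number stands for. Leaving out a saline sample leaves 1, which is then assumed to vary like the other groups. No group has the 4 samples that a test for outlying samples needs.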
